A study of Mus musculus with 20 samples.

Results

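The interleukin and interleukin receptor genes described here were all genes of the deposited gene table whose symbol begins with Il and a digit, apart from Il2ra, Il10, Il17a, Il17f, Il17rb, Il18, Il22, Il23r, Il25 and Il4i1. They comprised 72 of the 35204 genes in the table, namely 31 ligands, 35 receptor chains and 6 antagonists or decoy receptors. Poly-A RNA of terminal ileum was sequenced from 20 female C57BL/6 mice in 4 groups of 5, and each mouse was a separate sample. CD mice were specific pathogen-free (SPF) and ate a control diet, and TDD mice were SPF and ate a diet without tryptophan (Trp). The CD+ABX and TDD+ABX mice ate the same diets and received an antibiotic cocktail (ABX) of ampicillin, vancomycin, gentamycin, metronidazole and neomycin. The cocktail was given in drinking water with added sucrose. Whether SPF mice drank sucrose was not given, so an effect of sucrose and one of ABX cannot be told apart. All mice were 7 weeks old at the start and were sampled after 3 weeks on diet. The sample was a piece of whole ileum, which can hold epithelium, lamina propria, muscle and lymphoid follicles. Cages were not given in the sources used here, so an effect of cage and one of group cannot be told apart.

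Interleukins are secreted proteins through which immune cells, epithelium and stroma signal to each other, and most act on a receptor built of 2 or more chains. Chains are shared: the common gamma chain Il2rg serves the receptors for IL-2, IL-4, IL-7, IL-9, IL-15 and IL-21, Il6st (gp130) serves IL-6, IL-11 and IL-27, Il10rb serves IL-10 and IL-22, and Il12rb1 serves IL-12 and IL-23. Most of these receptors signal through JAK kinases and STAT factors, which SOCS proteins restrain, whereas receptors of the IL-1 and IL-17 families signal through MyD88 or Act1 to NF-kappaB. In the ileum, IL-22, IL-17 and IL-33 are known for their action on and from the epithelium, and IL-7 and IL-15 for keeping lymphocytes alive.

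Counts per mouse totalled 36676963 to 58662617 (median 47553758). They are estimated counts, in which reads matching several transcripts are shared out, and levels are given below as CPM, counts scaled to the library total after TMM adjustment, or, to compare genes with each other, as TPM, which also corrects for transcript length. A gene was tested if at least 1 mouse had 0.5 CPM or more, which held for 16306 genes and 45 of the 72 interleukin genes. All 4 groups entered 1 edgeR fit, and contrasts were taken by its quasi-likelihood test. A gene was called changed where q, the p-value after Benjamini-Hochberg adjustment over all 16306 genes, was under 0.05 and the change was 2-fold or more, and "passed the test" below means q under 0.05 whatever the fold. The 8 ileal enterocyte markers (such as Fabp6 and Slc10a2) summed to 14330 CPM in CD mouse 2 and to 18640 to 32850 CPM in the other mice. The 9 B cell markers (such as Cd79a) set mice apart within groups: they summed to 95.7 and 138.7 CPM in CD mice 2 and 3 and to 8.81 to 11.5 CPM in the other CD mice, to 7.48 CPM in TDD mouse 1 and 101.1 to 214.1 CPM in the other TDD mice, to 5.29 to 12.1 CPM in CD+ABX mice, and to 148.9 CPM in TDD+ABX mouse 5 against 6.19 to 35.0 CPM in the other TDD+ABX mice. In whole tissue, fewer cells of a type and less RNA per cell cannot be told apart.

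Receptors made up most of what was measured. Of the receptor chains 30 of 35 were tested, of the antagonists and decoys 4 of 6, and of the ligands 11 of 31. Il17rc, a chain of the IL-17 receptor, had the highest level per length (mean 150.8 TPM over the 20 mice). It was followed by Il10rb (106.1 TPM), the IL-22 receptor chain Il22ra1 (41.1 TPM), Il13ra1 (40.9 TPM), the ligand Il15 (32.2 TPM) and the IL-4 receptor chain Il4ra (23.4 TPM). The alarmin Il33 (19.8 TPM), Il15ra (14.3 TPM), Il11ra1 (14.2 TPM) and Il6st (13.1 TPM) completed the 10 highest. In CD mice, Il17rc lay at 126.2 ± 14.2 TPM and Il10rb at 102.0 ± 15.1 TPM (SD, n = 5). The neighbours Il22ra1 and Il13ra1 differed by less than the spread of either.

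**Figure D1:**
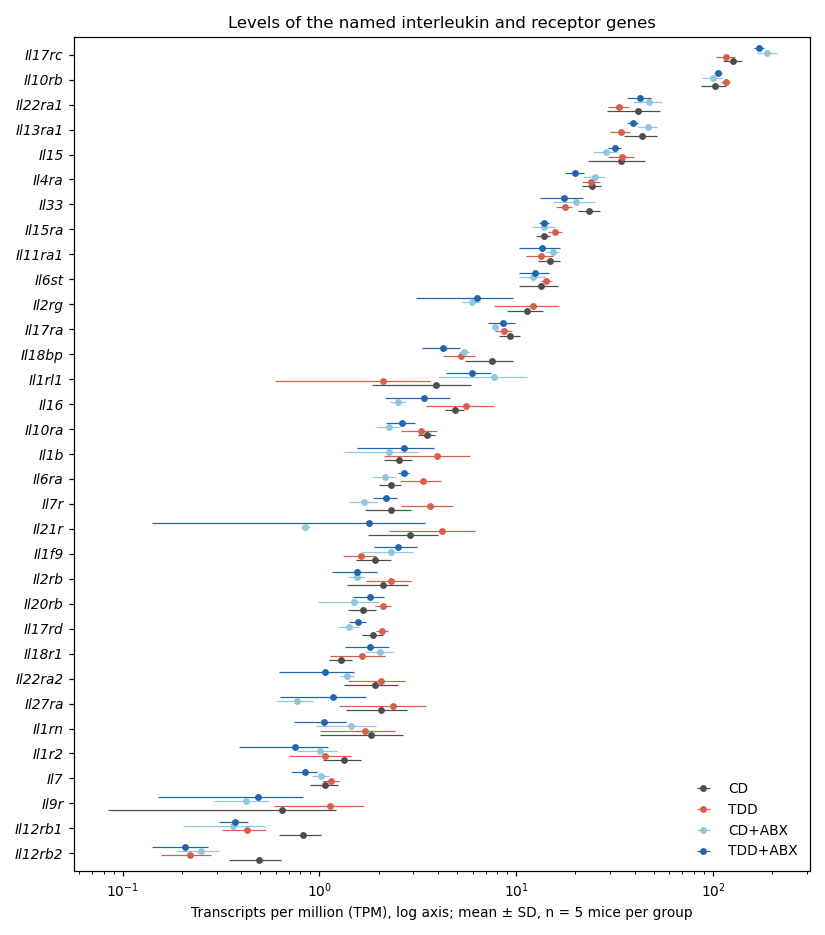
TPM (log axis) of the 33 interleukin and receptor genes named in the text, as group means with SD bars over 5 mice per group. Il17rc and Il10rb lie above 100 TPM on average, whereas Il12rb1 and Il12rb2 lie below 1 TPM.

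Many classical cytokines gave few counts in this tissue. Of the 27 members that were not tested, 20 were ligands, and none of the 27 exceeded 20 counts or 0.373 CPM in any mouse. Il1f10, Il1f5, Il1f6, Il20, Il24, Il3, Il31 and Il9 had a count of 0 in all 20 mice, which allows up to 3 counts per mouse, or 0.0511 to 0.0818 CPM (counting error only). Among the signature cytokines of helper T cells, Il4 reached at most 7 counts in a mouse, Il5 reached 3, Il13 reached 4, Il2 reached 4 and Il21 reached 12 (these were named after their values were seen). No difference between groups was tested for them. Il21, with 71 counts over all 20 mice, lay at 0.0598 to 0.186 CPM in the CD mice and at 0 to 0.0479 CPM in the CD+ABX mice. Il5, with 14 counts in all, was above 0 in 1 CD mouse and in all 5 CD+ABX mice. The CD+ABX values of Il21 and all values of Il5 were within 3 counts per mouse. How many other genes below the filter differ in this way was not counted, so no effect of ABX is read from these values.

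The question of the first comparison was what the lack of dietary Trp changed in mice with an intact microbiota. On TDD, 3 receptor chains were higher (Il6ra, Il15ra, Il7r) and the 2 chains of the IL-12 receptor were lower (Il12rb1, Il12rb2) at q under 0.05, and of these only Il12rb2 reached a 2-fold change. With 1 of 45 called, the members did so about as often as all genes tested, of which 1.83% were called and 0.993% were called lower. The 5 of 45 at q under 0.05 compare with 14.4% of all genes, of which 6.65% were higher and 7.71% lower. No ligand and no decoy passed the test. The median log2 fold change was 0.08 over the 45 members and 0.01 over all genes tested.

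Il12rb2 encodes the signalling chain that makes T cells and NK cells responsive to IL-12 (ENSMUSG00000018341.12, chromosome 6 of GRCm38, 67291318 to 67376188). It lay at 0.606, 1.14, 1.16, 0.803 and 1.305 CPM in CD mice 1 to 5 and at 0.301, 0.504, 0.476, 0.413 and 0.663 CPM in TDD mice. Only TDD mouse 5 lay above the lowest CD mouse. The log2 fold change was -1.08 (standard error 0.27, q = 0.0116 with edgeR), in a gene with at most 62 counts in any mouse. Without CD mouse 5 it was -0.97 (q = 0.0347, edgeR) and without TDD mouse 1 it was -0.95 (q = 0.0276, edgeR), both just short of a 2-fold change. Its exons overlap those of Serbp1 on the other strand.

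Its partner Il12rb1 (ENSMUSG00000000791.9, chromosome 8, 70808449 to 70821424) lay at 2.20, 2.56, 1.82, 3.004 and 4.38 CPM on CD and at 0.978, 1.90, 1.39, 1.76 and 1.65 CPM on TDD. The gene table holds 1.999 times the sum of this gene's transcripts, at nearly the same ratio in every mouse (1.995 to 2). Either value thus gives the same fold changes, and why they differ was not tested. Whether the higher counts alter the standard errors and q of this gene was not tested either. Its log2 fold change was -0.86 (standard error 0.24, q = 0.0206, edgeR), and without CD mouse 5 it was -0.65 (q = 0.0741, edgeR). CD mouse 5 also had the highest sum of the 11 T cell markers (151.5 CPM, against 55.6 to 102.2 CPM in the other CD mice and 37.3 to 70.5 CPM on TDD). With the T cell marker level as a covariate, an alternative chosen after seeing the data, the log2 fold change was -0.88 for Il12rb2 (q = 0.0464, edgeR) and -0.50 for Il12rb1 (q = 0.0976, edgeR). Stat4, which IL-12 activates, had a log2 fold change of 0.03 (q = 0.964, edgeR).

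The promoter of Il12rb2 is shown because that gene had the largest fold change on TDD. The window is 250 bases before and 50 bases after the RefSeq start (GRCm38.p6, chr6:67376139-67376438, minus strand). Capitals mark the STAT motif TTCNNNGAA, here 123 bases before the start.
Il12rb2: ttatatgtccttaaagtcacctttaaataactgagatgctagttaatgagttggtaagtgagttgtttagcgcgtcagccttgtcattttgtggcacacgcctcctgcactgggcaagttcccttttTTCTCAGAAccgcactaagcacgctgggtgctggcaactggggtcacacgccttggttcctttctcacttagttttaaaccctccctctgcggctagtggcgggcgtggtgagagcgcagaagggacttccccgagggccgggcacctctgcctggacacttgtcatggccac
The motif, which reads the same on both strands, occurred in 10 of the 72 RefSeq windows that 57 members had, and in 8.3% of all 32851 windows. The AHR motif TNGCGTG, searched on both strands because Trp metabolites are known ligands of the aryl hydrocarbon receptor (AHR), occurred in 2 of the 72 windows (those of Il1r1 and Il20ra) and in 5.07% of all windows. A match is a description of the sequence only.

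Il6ra, the chain that binds IL-6, had the lowest q of the 5 (ENSMUSG00000027947.11, chromosome 3, 89864059 to 89913196). It lay at 9.50, 12.6, 10.1, 11.1 and 10.7 CPM on CD and at 12.0, 15.3, 17.0, 14.8 and 16.2 CPM on TDD. Only TDD mouse 1 fell within the range of the CD mice. The log2 fold change was 0.48 (standard error 0.09, q = 0.00117, edgeR), and it stayed between 0.42 and 0.56 at q under 0.05 when each of the 20 mice was left out in turn. Its signalling partner Il6st lay at 64.8 ± 11.1 CPM in CD mice and 71.3 ± 3.69 CPM in TDD mice (SD, n = 5; log2 fold change 0.14, q = 0.395, edgeR), and the ligand Il6 had at most 8 counts in any mouse.

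Il15ra, which presents IL-15 to lymphocytes, was the only member higher on TDD without overlap, where 4.68% of all genes were separated in that direction. It lay at 12.8, 13.5, 13.0, 13.7 and 11.95 CPM on CD and at 15.7, 16.7, 14.6, 14.9 and 14.85 CPM on TDD. The change was small (log2 fold change 0.24, standard error 0.05, q = 0.00451, edgeR), and its ligand Il15 lay at 23.0 ± 6.71 and 25.0 ± 4.58 CPM (SD, n = 5; q = 0.69, edgeR). Il7r, the IL-7 receptor chain of T cells and innate lymphoid cells, lay at 4.60, 7.12, 5.36, 5.27 and 4.90 CPM on CD and at 4.92, 9.69, 9.36, 8.06 and 10.4 CPM on TDD. TDD mouse 1, which had the lowest B cell marker sum of that group, stood with the CD mice. The rise of Il7r, 0.64 as a log2 fold change with a standard error of 0.17 (q = 0.0182, edgeR), was 0.59 without CD mouse 5 (q = 0.054, edgeR), 0.59 without TDD mouse 3 (q = 0.0508, edgeR) and 0.55 without TDD mouse 5 (q = 0.0556, edgeR). With the B cell marker level as a covariate, also chosen after seeing the data, it was 0.42 (q = 0.0807), and with the T cell marker level 0.70 (q = 0.022, edgeR). The 7 innate lymphoid markers summed to 93.8 to 113.5 CPM on CD and to 132.3 to 161.0 CPM on TDD without overlap. At q under 0.05, 2 of the 7 rose, Id2 among them, and 0 were called, where 6.65% of all genes were higher. Gata3, another of the 7 markers, lay at 0.918 to 1.88 CPM on CD and at 1.13 to 1.90 CPM on TDD, a small part of the marker sum. The sum rests mostly on the markers with the most counts and does not count cells. The authors' flow cytometry was of lamina propria cells without Peyer's patches, whereas the RNA was of whole ileum. It showed no change in how many type 2 and type 3 innate lymphoid cells TDD mice had, but fewer of them were proliferating. The part of these cells in the Il7r result was not tested.

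Among members with a mean of at least 0.5 CPM over the mice, the largest differences that did not pass were those of Il1rl1, Il9r, Il21r, Il1b and Il20rb. Below that level, the IL-5 receptor chain Il5ra, named after its values were seen and with at most 37 counts in a mouse, had log2 fold changes of 0.57 between the diets in SPF mice (q = 0.477), 0.94 in ABX-treated mice (q = 0.433), -1.06 with ABX on CD (q = 0.209) and -0.69 with ABX on TDD (q = 0.351, edgeR). Il1rl1, the receptor for IL-33, had a log2 fold change of -1.03 (95% interval -1.961 to -0.0987, from the t distribution with 16 degrees of freedom as for all intervals here; q = 0.129, edgeR), and without CD mouse 2 it was -1.27 (q = 0.0405, edgeR). Its ligand Il33 was the only member lower on TDD without overlap, where 4.9% of all genes were separated in that direction. Il33 lay at 36.3 to 48.3 CPM on CD and 29.3 to 36.2 CPM on TDD, a log2 difference of -0.38 (q = 0.149, edgeR). The 6 fibroblast markers summed to 403.5 to 613.1 CPM on CD and 283.8 to 351.8 CPM on TDD, also without overlap, with 3 of 6 lower at q under 0.05 (Col1a1, Col1a2 and Col3a1) and 2 called, and their part in the Il33 values was not tested. Il9r (0.94, 95% interval -0.14 to 2.02) and Il21r (0.60, -0.34 to 1.53) varied widely within both groups. The inflammatory cytokine Il1b had a log2 fold change of 0.52 (q = 0.246) and the IL-20 receptor chain Il20rb 0.48 (q = 0.0541, edgeR). Without CD mouse 2, the mouse with the lowest enterocyte sum, Il13ra1 (-0.44, q = 0.00638), Il22ra1 (-0.44, q = 0.022) and Il18bp (-0.56, q = 0.0172, edgeR) were lower on TDD at q under 0.05. In that fit more genes passed over the whole table as well, 3098 (1753 lower) against 2342 (1257 lower) with all mice. Without CD+ABX mouse 4, Il33 passed as well (q = 0.0432, edgeR).

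**Figure D2:**
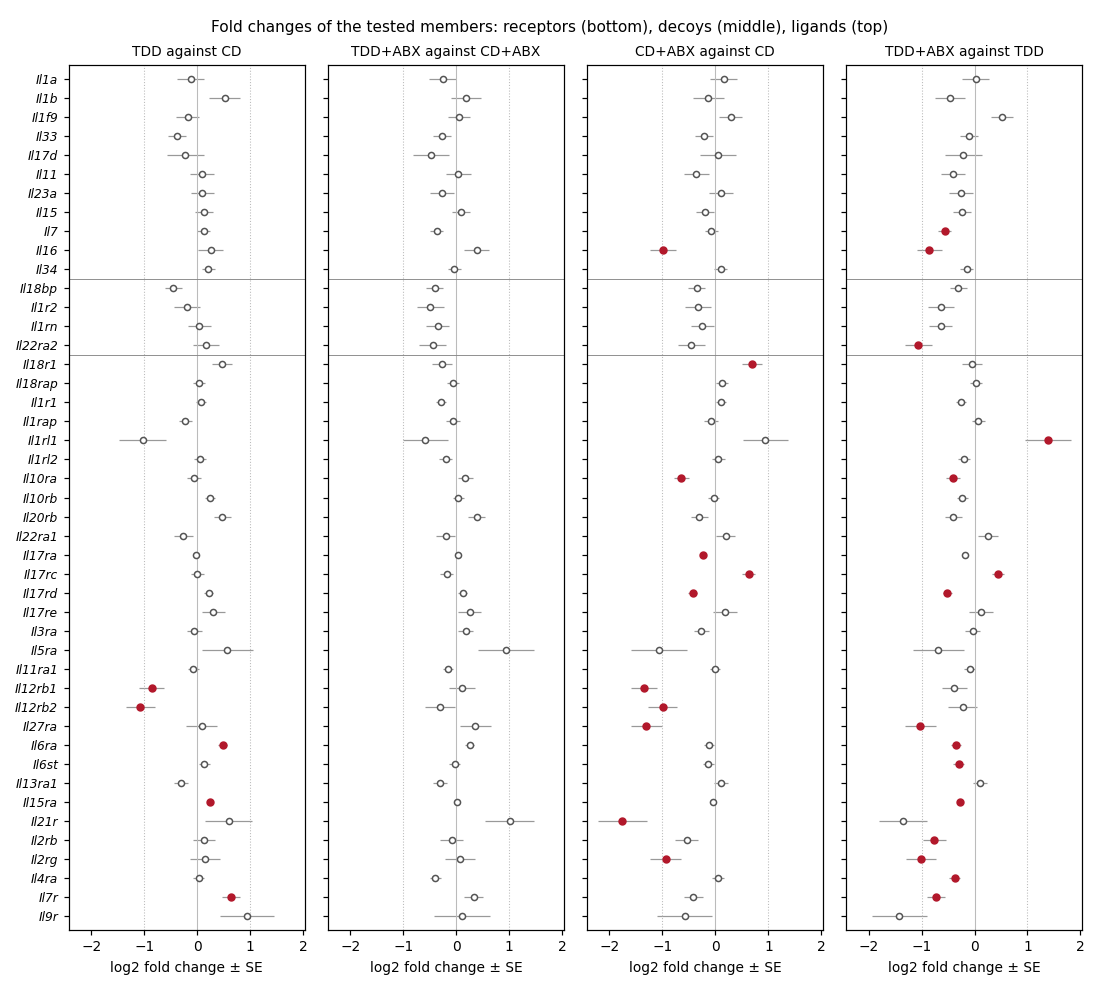
log2 fold changes with standard errors of the 45 tested members in the 4 comparisons between 2 groups, ordered as ligands, decoys and receptors, with filled points at q under 0.05 (edgeR) and dotted lines at a 2-fold change. Filled points number 5 for TDD against CD, 0 for TDD+ABX against CD+ABX, 11 for CD+ABX against CD and 15 for TDD+ABX against TDD.

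The second comparison asked what TDD changed when the microbiota was depleted. No member passed the test between TDD+ABX and CD+ABX mice with edgeR, where 0.307% of all genes were called and 1.64% passed q under 0.05. At an unadjusted p under 0.05 there were 8 members of 45, against 14.7% of all genes. DESeq2 called 0 members too, although Il4ra passed its q threshold (log2 fold change -0.40, adjusted p = 0.0217 with DESeq2). Il4ra, a chain of the IL-4 and IL-13 receptors, lay at 59.3, 79.5, 65.9, 77.2 and 80.6 CPM in CD+ABX mice and at 48.4, 52.0, 55.5, 60.5 and 58.96 CPM in TDD+ABX mice. The groups overlapped in CD+ABX mouse 1 only, and the log2 fold change was -0.40 (standard error 0.11, q = 0.0623, edgeR). It passed without CD+ABX mouse 1 (-0.47, q = 0.0376, edgeR) and without TDD mouse 1, which enters only the shared estimate of the spread (q = 0.0394, edgeR).

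None of the 5 members that passed on TDD in SPF mice did so with ABX. Il6ra was higher in every TDD+ABX mouse than in every CD+ABX mouse (11.3 to 12.8 CPM against 8.99 to 10.5 CPM), where 2.35% of all genes were separated in that direction, with a log2 fold change of 0.25 (95% interval 0.07 to 0.44, q = 0.161, edgeR). Il18bp, the soluble antagonist of IL-18, was lower in every TDD+ABX mouse (4.02 to 6.34 CPM against 6.38 to 7.15 CPM; q = 0.233, edgeR), where 2.42% of all genes were separated. For Il12rb2 the log2 fold change was -0.305 (95% interval -0.90 to 0.29), for Il7r 0.33 (-0.04 to 0.70) for Il15ra 0.02 (-0.09 to 0.13) and for Il12rb1 0.10 (-0.42 to 0.62), the last with the sign opposite to that in SPF mice. The largest values at a mean of at least 0.5 CPM were 1.01 for Il21r (q = 0.32), -0.59 for Il1rl1 (q = 0.563), -0.49 for the IL-1 decoy receptor Il1r2 (q = 0.383) and -0.44 for the IL-22 decoy receptor Il22ra2 (q = 0.448, edgeR). The Il21r value was that of TDD+ABX mouse 5, at 7.42 CPM against 1.19 to 2.86 CPM in the other 4 mice of its group, and without it the log2 fold change was 0.33.

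Whether the diet acted differently with and without ABX was tested by the interaction of both factors. No member passed (edgeR, q under 0.05), where 0.0245% of all genes were called and 0.0368% passed, and 6 of 45 had an unadjusted p under 0.05, against 8.87% of all genes. DESeq2 and limma-voom called 0 members as well. At a mean of at least 0.5 CPM, the largest values were 0.96 for Il12rb1 (95% interval 0.24 to 1.69, q = 0.351), -0.84 for Il9r (-2.39 to 0.71, q = 0.806), 0.77 for Il12rb2 (-0.05 to 1.59, q = 0.592), -0.74 for Il18r1 (-1.32 to -0.16, q = 0.38) and -0.61 for Il22ra2 (-1.36 to 0.15, q = 0.675, edgeR). The diet effects on these genes are thus not shown to differ between SPF and ABX-treated mice.

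The third comparison gave the effect of ABX on the control diet. Most of the genes that passed were receptor chains and most of them fell. Il12rb1, Il27ra and Il21r were called lower, and Il16, Il2rg, Il12rb2, Il10ra, Il17rd and Il17ra were lower with less than a 2-fold change, whereas Il17rc and Il18r1 were higher. The 3 called members of 45 compare with 2.25% of all genes tested (1.67% lower), and the 11 at q under 0.05 with 12.6%. Of the 11, 9 were lower and 2 higher, against 7.37% and 5.26% of all genes. The median log2 fold change was -0.13 over members and -0.00 over all genes.

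Il21r, the receptor chain for the T cell cytokine IL-21 (ENSMUSG00000030745.9, chromosome 7, 125603429 to 125633570), lay at 2.42, 5.35, 7.06, 3.81 and 6.06 CPM on CD and at 1.54, 1.32, 1.47, 1.38 and 1.60 CPM in CD+ABX mice. The groups did not overlap, as for 9 of the 45 members (2 higher and 7 lower), while 9.74% of all genes were separated (3.86% higher and 5.88% lower). The CD+ABX mice spanned a narrow range and the CD mice a wide one. The log2 fold change was -1.75 (standard error 0.47, q = 0.0188, edgeR).

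Il27ra, the chain specific to IL-27, which restrains T cell responses (ENSMUSG00000005465.9, chromosome 8, 84030294 to 84042589), lay at 2.18, 4.16, 4.09, 2.80 and 3.998 CPM on CD and at 1.68, 1.08, 1.53, 1.23 and 1.47 CPM in CD+ABX mice. Every CD+ABX mouse lay below every CD mouse, and the log2 fold change was -1.30 (standard error 0.30, q = 0.00734, edgeR). Its exons overlap those of Palm3 on the other strand. Il12rb1 lay at 0.860, 1.34, 1.19, 0.642 and 1.47 CPM in CD+ABX mice, again below every CD mouse (log2 fold change -1.34, standard error 0.24, q = 0.00173, edgeR). These 3 genes stayed called when any 1 of the 20 mice was left out.

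**Figure D3:**
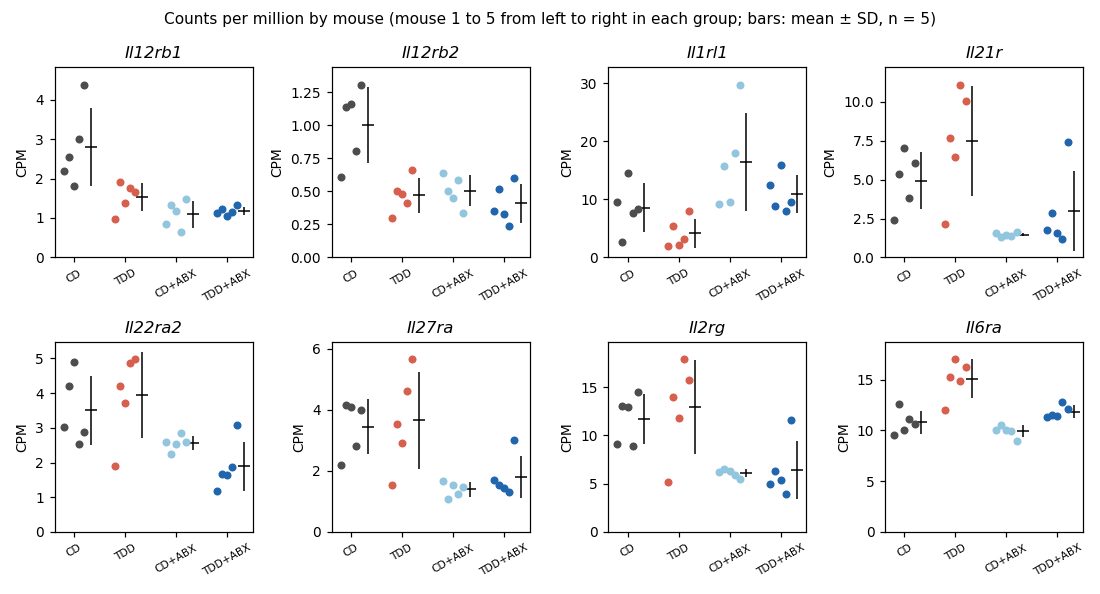
CPM by mouse of the 7 members called in at least 1 comparison and of Il6ra, with mice 1 to 5 from left to right in each group and bars for mean and SD (n = 5). Il21r, Il27ra and Il2rg of TDD+ABX mouse 5 lie above the other TDD+ABX mice, and the same genes of TDD mouse 1 lie below the other TDD mice.

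The common gamma chain Il2rg lay at 9.12, 13.1, 12.9, 8.88 and 14.5 CPM on CD and at 6.19, 6.54, 6.30, 5.92 and 5.52 CPM in CD+ABX mice, with no overlap (log2 fold change -0.94, standard error 0.28, q = 0.036, edgeR). This q was the least stable of the 11: it was above 0.05 without CD mouse 2, 3 or 5 or any 1 of the 5 CD+ABX mice, and was highest without CD mouse 5 (log2 fold change -0.85, q = 0.0828, edgeR). The chemoattractant Il16 lay at 11.5 ± 1.27 CPM on CD and 5.84 ± 0.497 CPM in CD+ABX mice (SD, n = 5; log2 fold change -0.98, q = 0.0121, edgeR). The ligand-binding chain for IL-10, Il10ra, lay at 9.27 ± 0.986 and 5.95 ± 0.786 CPM (log2 fold change -0.64, q = 0.00497, edgeR), while its partner Il10rb lay at 134 ± 23.0 and 132 ± 17.3 CPM (log2 fold change -0.03, q = 0.896, edgeR). Il12rb2 fell to 0.503 ± 0.117 CPM from 1.002 ± 0.288 CPM (SD, n = 5; log2 fold change -0.997, just under a 2-fold change, q = 0.0198, edgeR). Without CD mouse 5 it was -0.88 (q = 0.0537) and without CD+ABX mouse 5 -0.88 (q = 0.0541, edgeR).

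The T cell markers moved with these receptors. Their sum was 24.98 to 33.4 CPM in CD+ABX mice, below the 55.6 to 151.5 CPM of the CD mice, and of the 11 T cell markers 10 were lower at q under 0.05 and 9 were called. Of the 9 B cell markers none passed, though their median log2 fold change was -3.29. Their sum varied widely among CD mice (8.81 to 138.7 CPM) and was 5.29 to 12.1 CPM in CD+ABX mice. The 10 macrophage and dendritic cell markers summed to 120.9 to 139.3 CPM against 182.1 to 236.7 CPM. With the T cell marker level as a covariate, the log2 fold change of Il21r was -0.14 (q = 0.93), that of Il27ra -0.44 (q = 0.651), that of Il12rb1 -0.32 (q = 0.627) and that of Il2rg 0.05 (q = 0.962, edgeR). In that fit the number of genes called fell from 367 to 74 over the whole table, and every CD+ABX mouse lay below every CD mouse in that sum, so the part of T cells and that of ABX cannot be told apart. With the B cell marker level as a covariate, the values were -1.15 for Il21r (q = 0.0109), -0.93 for Il27ra (q = 0.0105) and -1.31 for Il12rb1 (q = 0.00328, edgeR).

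In the IL-17 receptor family the chains went different ways. Il17rc rose from 120.6, 122.5, 92.8, 129.5 and 122.9 CPM on CD to 159.9, 166.3, 170.6, 168.8 and 243.3 CPM in CD+ABX mice. No CD+ABX mouse overlapped a CD mouse (log2 fold change 0.63, standard error 0.12, q = 0.00201, edgeR), and without CD+ABX mouse 5, the highest, it was 0.50 at q under 0.05. Il17ra, the chain that pairs with it, fell from 26.3 ± 1.75 to 22.4 ± 1.35 CPM (SD, n = 5; log2 fold change -0.23, q = 0.0177, edgeR), with q of 0.0514 to 0.0524 without CD mouse 3, CD mouse 5 or CD+ABX mouse 1. Il17rd, known as a regulator of FGF and IL-17 signalling, fell from 11.4 ± 1.16 to 8.48 ± 0.7003 CPM (log2 fold change -0.43, q = 0.00313, edgeR). Il17re, the chain for IL-17C (log2 fold change 0.18, q = 0.681), and the ligand Il17d (0.04, q = 0.961, edgeR) did not pass.

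Il18r1, the binding chain for IL-18 (ENSMUSG00000026070.15, chromosome 1, 40465552 to 40500854), lay at 3.39, 3.56, 4.03, 2.78 and 4.08 CPM on CD and at 5.73, 7.02, 5.51, 4.51 and 6.13 CPM in CD+ABX mice. Every CD+ABX mouse lay above every CD mouse (log2 fold change 0.69, standard error 0.19, q = 0.0245, edgeR), and q rose above 0.05, to at most 0.0624, without CD mouse 1 or 4 or CD+ABX mouse 2 or 5. One of its 3 RefSeq promoter windows (GRCm38.p6, chr1:40465756-40466055, plus strand) is shown because it held the STAT motif TTCNNNGAA, in capitals, in 2 places, 219 and 152 bases before the start.
Il18r1: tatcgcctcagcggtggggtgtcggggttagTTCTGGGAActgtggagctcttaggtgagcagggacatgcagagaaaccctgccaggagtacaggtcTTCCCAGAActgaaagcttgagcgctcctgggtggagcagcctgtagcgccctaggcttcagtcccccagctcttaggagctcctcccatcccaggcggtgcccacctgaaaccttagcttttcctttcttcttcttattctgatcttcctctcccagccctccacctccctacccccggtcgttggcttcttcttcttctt
Its partner chain Il18rap did not pass (log2 fold change 0.12, q = 0.574, edgeR).

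Among members with a mean of at least 0.5 CPM, the largest differences that did not pass on CD were 0.94 for Il1rl1 (95% interval 0.03 to 1.85, q = 0.167), -0.58 for Il9r (q = 0.536), -0.55 for the IL-2 and IL-15 receptor chain Il2rb (q = 0.0954), -0.46 for Il22ra2 (q = 0.264) and -0.41 for Il7r (q = 0.13, edgeR).

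The fourth comparison gave the effect of ABX on the Trp-deficient diet. Il22ra2, Il2rg and Il27ra were called lower and Il1rl1 was called higher, 4 of 45 where 1.63% of all genes were called, 1.26% lower and 0.368% higher. At q under 0.05 there were 15 members, 13 lower and 2 higher, where 15.4% of all genes passed, 8.22% lower and 7.14% higher. Among the 16 genes of the common gamma chain group and IL-13, 6 of the 10 tested fell (Il2rb, Il2rg, Il4ra, Il7, Il7r and Il15ra). The groups did not overlap for 10 members, where 11.0% of all genes were separated. The median log2 fold change was -0.28 over members and -0.03 over all genes.

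Il22ra2 encodes a secreted decoy receptor that binds IL-22 (ENSMUSG00000039760.8, chromosome 10, 19621998 to 19634681). It lay at 1.91, 4.22, 3.73, 4.87 and 4.98 CPM on TDD and at 1.18, 1.68, 1.63, 1.87 and 3.09 CPM in TDD+ABX mice. The groups overlapped only through TDD mouse 1, the lowest of its group, and TDD+ABX mouse 5, the highest. The log2 fold change was -1.06 (standard error 0.26, q = 0.0104, edgeR). It kept q under 0.05 in all 20 fits without 1 mouse, but fell short of a 2-fold change without TDD mouse 4 (-0.98), TDD mouse 5 (-0.96) or TDD+ABX mouse 1 (-0.92). The receptor that it competes with, Il22ra1, lay at 65.9 ± 6.54 and 78.6 ± 8.53 CPM (SD, n = 5; log2 fold change 0.25, q = 0.367, edgeR).

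Il2rg (ENSMUSG00000031304.18, chromosome X, 101264378 to 101268255) lay at 5.14, 14.0, 11.8, 17.9 and 15.8 CPM on TDD and at 4.98, 6.28, 5.39, 3.92 and 11.6 CPM in TDD+ABX mice. TDD mouse 1 lay among the TDD+ABX mice and TDD+ABX mouse 5 near the TDD mice. The log2 fold change was -1.01 (standard error 0.28, q = 0.0234, edgeR), and it ended between -1.31 without TDD+ABX mouse 5 and -0.86 without TDD+ABX mouse 4 (q = 0.0507, edgeR). It was called in 7 of the 20 fits without 1 mouse, and q was above 0.05, up to 0.0696, without TDD mouse 4 or 5 or TDD+ABX mouse 1, 2, 3 or 4. A gene on the same strand, Gm20489, overlaps its exons, so that reads could have been split between them.

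Il27ra lay at 1.53, 3.53, 2.92, 4.62 and 5.66 CPM on TDD and at 1.72, 1.54, 1.45, 1.29 and 3.02 CPM in TDD+ABX mice, with the same pair of mice out of place (log2 fold change -1.02, standard error 0.29, q = 0.0245, edgeR). Without TDD+ABX mouse 5 it was -1.27, and without TDD mouse 5 it was -0.81 (q = 0.0717, edgeR). Its q was also above 0.05 without TDD mouse 4 or TDD+ABX mouse 1, 2, 3 or 4. Il21r lay at 2.13, 7.65, 6.48, 11.1 and 10.02 CPM on TDD and at 1.74, 2.86, 1.57, 1.19 and 7.42 CPM in TDD+ABX mice (log2 fold change -1.34, standard error 0.45, q = 0.051, edgeR). Without TDD+ABX mouse 5 its log2 fold change was -2.003 (q = 0.00343, edgeR), and without TDD mouse 1 it was -1.58 (q = 0.0162, edgeR). Il9r, the IL-9 receptor chain, was -1.42 (q = 0.0687) and -1.86 without TDD+ABX mouse 5 (q = 0.0233, edgeR) or -1.66 without TDD mouse 1 (q = 0.0292, edgeR). Over the whole table, 421 genes were called without TDD+ABX mouse 5 and 400 without TDD mouse 1, against 265 with all mice. At q under 0.05 the numbers were 2893 and 2442, against 2505.

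TDD mouse 1 and TDD+ABX mouse 5 were also the mice whose B cell marker sum stood apart from their groups, and Il9r followed that sum. In the 4 TDD mice with B cell sums of 101.1 CPM or more, Il9r lay at 1.80 to 3.47 CPM, and in TDD mouse 1 at 0.627 CPM. Il9r lay at 2.07 and 2.35 CPM in CD mice 2 and 3, at 1.84 CPM in TDD+ABX mouse 5, and at 0.337 to 0.941 CPM in the 13 mice with B cell sums of 35.0 CPM or less. With the B cell marker level as a covariate, the log2 fold change between TDD+ABX and TDD mice was -0.71 for Il21r (q = 0.103), -0.57 for Il27ra (q = 0.117), -0.55 for Il2rg (q = 0.0755), -0.43 for Il16 (q = 0.11) and -0.62 for Il22ra2 (q = 0.0247, edgeR). Il1rl1 alone of the 4 stayed called in that fit, at 1.66 (q = 0.0477, edgeR). The T cell marker sum was 24.5 to 49.3 CPM in TDD+ABX and 37.3 to 70.5 CPM in TDD mice, and 6 of the 11 T cell markers fell. With the T cell marker level as a covariate no member was called, with log2 fold changes of 1.69 for Il1rl1 (q = 0.106), -0.83 for Il22ra2 (q = 0.131), -0.49 for Il27ra (q = 0.373) and -0.43 for Il2rg (q = 0.37, edgeR). The diet effect on Il9r with ABX was 0.10 without a covariate and -0.82 with the B cell marker level as a covariate (q = 0.0443, edgeR).

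**Figure D4:**
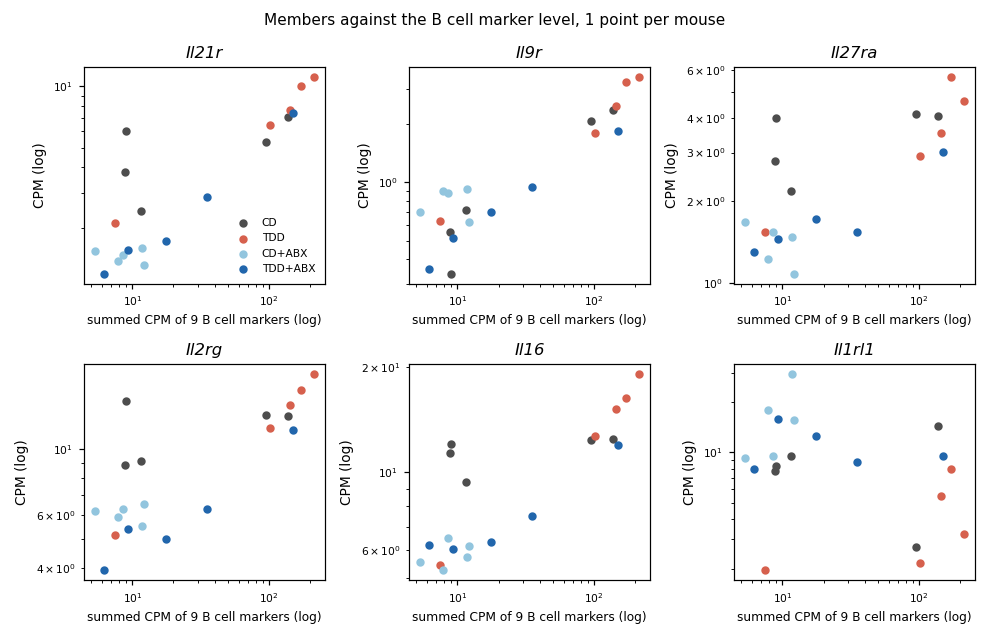
CPM of 6 members against the summed CPM of 9 B cell markers, 1 point per mouse, both on log axes, with groups in colour. For Il9r the 7 mice at a B cell sum of 95.7 CPM or more all lie above the other 13, whereas Il1rl1 shows no such order.

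Other receptors and ligands of the lymphocyte cytokines fell on TDD without reaching a 2-fold change. Il7r lay at 4.73, 5.06, 5.70, 4.28 and 5.89 CPM in TDD+ABX mice, below TDD mice 2 to 5 (log2 fold change -0.73, standard error 0.17, q = 0.0103, edgeR), and its ligand Il7 fell from 2.06 ± 0.228 to 1.39 ± 0.203 CPM without overlap (SD, n = 5; log2 fold change -0.57, q = 0.00594, edgeR). Il2rb fell from 6.49 ± 1.45 to 3.84 ± 0.890 CPM (log2 fold change -0.76, q = 0.0214, edgeR), with q of 0.0516 to 0.0645 without TDD mouse 4 or 5 or TDD+ABX mouse 1, 3 or 4. Il15ra, at 12.4 to 13.0 CPM in TDD+ABX mice against 14.6 to 16.7 CPM on TDD, fell by 0.28 on the log2 scale (q = 0.00255, edgeR), and Il6ra fell by 0.35 (q = 0.0127, edgeR). Il16 fell by 0.85 (q = 0.0233, edgeR), by 1.06 without TDD+ABX mouse 5, and by 0.71 without TDD mouse 4 (q = 0.0658, edgeR). Its q was also above 0.05 without TDD mouse 5 or TDD+ABX mouse 1, 2 or 3. Il4ra fell from 71.4 ± 9.31 to 55.1 ± 4.95 CPM (SD, n = 5; log2 fold change -0.37, q = 0.0239, edgeR), with q of 0.0562 to 0.0822 without TDD mouse 1 or TDD+ABX mouse 1, 2 or 3. Il10ra (-0.41, q = 0.0464) and Il6st (-0.30, q = 0.0477, edgeR) passed narrowly, in 3 and 5 of the 20 fits without 1 mouse, with q of up to 0.116 and 0.135 in the others. In the IL-17 family Il17rc rose (0.44, q = 0.0168) and Il17rd fell (-0.52, q = 0.0011, edgeR), as on the control diet. The comparisons on the 2 diets share no mice.

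Among values that did not pass on TDD, the IL-1 receptor antagonist Il1rn had a log2 fold change of -0.64 (q = 0.0542), the decoy receptor Il1r2 -0.63 (q = 0.0942) and the epithelial IL-36 ligand Il1f9 0.52 (q = 0.103, edgeR).

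Il1rl1, also known as ST2, binds IL-33 and is found on type 2 innate lymphoid cells, mast cells and regulatory T cells (ENSMUSG00000026069.15, chromosome 1, 40429570 to 40465415). It lay at 1.957, 5.50, 2.17, 3.22 and 7.95 CPM on TDD and at 12.5, 8.83, 15.98, 7.96 and 9.55 CPM in TDD+ABX mice. The groups touched without overlap, TDD mouse 5 at 7.951 CPM and TDD+ABX mouse 4 at 7.958 CPM. The log2 fold change was 1.39 (standard error 0.44, q = 0.0407, edgeR), and it lay between 1.21 and 1.77 in the 20 fits without 1 mouse, with q above 0.05 in 7 of them, without TDD mouse 1, 2, 3 or 4 or TDD+ABX mouse 1, 2 or 3. On the control diet it lay at 9.50, 2.72, 14.5, 7.71 and 8.29 CPM in CD mice and at 9.26, 15.8, 9.48, 17.98 and 29.7 CPM in CD+ABX mice, which overlapped. Its ligand Il33 had log2 fold changes of -0.22 (q = 0.464) and -0.11 (q = 0.69, edgeR) with ABX on CD and TDD.

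The 8 tuft cell markers moved with ABX as well: 6 rose on CD and 3 on TDD at q under 0.05 (5.26% and 7.14% of all genes), none by 2-fold. Their sum was 62.9 to 78.4 CPM in CD and 79.7 to 154.4 CPM in CD+ABX mice, and 48.6 to 63.3 CPM in TDD and 65.8 to 109 CPM in TDD+ABX mice. Of the 8 mast cell markers 3 were tested and none passed, and of the 7 innate lymphoid markers none passed with ABX. Tuft cells secrete IL-25, which acts beside IL-33 on innate lymphoid cells. The part of these cells in the Il1rl1 result was not tested.

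Il1rl1 has a long form that spans the membrane and a short form that is secreted and binds IL-33 as a decoy, and the transcript values separate them. In GENCODE M21, the short form is coded by a transcript of 8 exons that ends at 40448148 (1011 coding bases) and the long form by a pair of transcripts (1701 coding bases each, ending at 40465396 and 40465415). A second transcript of 8 exons and 1011 coding bases, which starts at 40429570 and ends at 40446723, was above 0 in 3 mice only (0.122 TPM in CD mouse 3, 0.524 TPM in TDD+ABX mouse 1 and 0.470 TPM in TDD+ABX mouse 3) and is counted with the other transcripts below. The first 985 coding bases are common to both forms. The last 30 shared coding bases are shown in lower case, followed in capitals by the 26 coding bases that only the short form has, or by the first 30 of the long form, which lie in the next exon (chr1:40446646-40446701 for the short form, and from 40446646 to 40450104 across an intron for the long form, plus strand, from GENCODE's transcript sequences).
Il1rl1 short form: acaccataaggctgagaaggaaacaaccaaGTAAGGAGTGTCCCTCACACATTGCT
Il1rl1 long form: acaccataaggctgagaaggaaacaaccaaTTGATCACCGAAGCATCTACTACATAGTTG
The short form continues past the exon's end into sequence that is intron in the long form.

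The short-form transcript ending at 40448148 held most of the gene's TPM, 81.0 ± 10.8% over the 20 mice (SD, n = 20; 52.2% in TDD mouse 2 to 90.9% in CD mouse 4). It lay at 3.87, 0.924, 6.09, 3.15 and 3.12 TPM in CD mice, 0.668, 2.06, 0.654, 1.26 and 3.12 TPM in TDD mice, 3.40, 6.58, 4.03, 7.40 and 11.3 TPM in CD+ABX mice, and 4.38, 3.37, 6.60, 3.503 and 4.06 TPM in TDD+ABX mice. Every TDD+ABX mouse was above every TDD mouse. The long forms together lay at 0.436 ± 0.152, 0.221 ± 0.109, 0.798 ± 0.332 and 0.585 ± 0.201 TPM in CD, TDD, CD+ABX and TDD+ABX mice (SD, n = 5). Both forms thus had the same order of group means. The short form shares 985 of its 1011 coding bases with the long forms, and their TPM rest on how reads were shared out between transcripts.

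**Figure D5:**
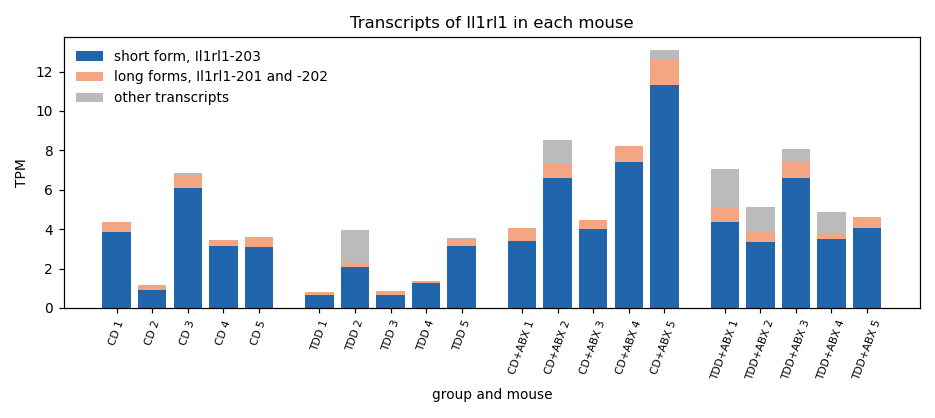
TPM of Il1rl1 transcripts in each mouse, stacked as the short-form transcript that ends at 40448148, the long forms and other transcripts. The short form is the largest part in all 20 mice, and the group means of the short form are 3.43 in CD, 1.55 in TDD, 6.55 in CD+ABX and 4.38 TPM in TDD+ABX mice.

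Genes that work with the interleukin receptors were counted from lists of partners, of which most did not pass. Among the partner subunits and related ligands, 2 rose (Osmr and Clcf1) and 2 fell (Csf2ra among them) on TDD in SPF mice at q under 0.05. Over all genes, 6.65% rose and 7.71% fell. Of these partners, 1 was called, as lower. None of the 17 tested passed between the diets in ABX-treated mice. Osmr, the oncostatin M receptor chain that pairs with Il6st, lay at 8.37 to 15.4 CPM on CD and 14.3 to 17.5 CPM on TDD (log2 fold change 0.57, q = 0.00899, edgeR). Among the 22 JAK, STAT and SOCS genes, 1 rose on TDD in SPF mice, namely Socs3, and 1 fell at q under 0.05. Socs3, the feedback inhibitor of gp130 signalling, lay at 44.6, 29.0, 28.1, 42.2 and 24.3 CPM on CD and at 183.4, 105.9, 111.2, 147.6 and 139.3 CPM on TDD. Every TDD mouse was above every CD mouse (log2 fold change 2.03, standard error 0.22, q = 1.73e-05, edgeR). In antibiotic-treated mice it lay at 46.3 ± 13.2 CPM in CD+ABX mice and 82.7 ± 10.8 CPM in TDD+ABX mice (SD, n = 5; log2 fold change 0.84, q = 0.0497, edgeR).

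With ABX, 4 of the 22 JAK, STAT and SOCS genes fell on CD and 6 on TDD, and none rose. Over all genes, 7.37% fell on CD and 8.22% on TDD at q under 0.05. Jak3, the kinase bound to the common gamma chain, fell from 15.2 ± 2.01 to 10.2 ± 0.759 CPM on CD and from 17.0 ± 2.54 to 10.4 ± 1.62 CPM on TDD (SD, n = 5; q = 0.00291 and q = 0.000948, edgeR). Stat4 fell more than 2-fold on both diets (log2 fold change -1.34, q = 0.00601 on CD, and -1.22, q = 0.0103 on TDD, edgeR). The LIF receptor Lifr, another partner of Il6st, fell on both diets (log2 fold change -0.31 and -0.71, q = 0.0302 and q = 0.000254, edgeR). Of the 19 genes of IL-1 and IL-17 signalling, none passed on either diet contrast or with ABX on CD, and 3 fell with ABX on TDD, namely Ikbkb, Irak3 and Zc3h12a, by log2 fold changes of -0.20, -0.52 and -0.68.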

How the data were processed

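RNA was extracted from a piece of terminal ileum of each of 20 mice and sequenced after poly-A selection. Per the submitters' processing notes, the authors quantified transcripts with kallisto 0.44.0 on GRCm38. The deposited gene table holds estimated counts per gene, and the deposited transcript tables hold estimated counts and TPM per transcript, made by the authors from the same run. The strand setting is not given in the sources used here, and exons of 11 of the 33 named members overlap those of another gene. The authors' own test within iDEP is not named.

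Groups were taken from the labels. Estimated counts were rounded, a gene was kept where any 1 mouse reached 0.5 CPM, and 1 model of the 4 groups was fitted with edgeR 4.0.16 in R 4.3.3 (TMM scaling, quasi-likelihood test, two-sided), with Benjamini-Hochberg adjustment over 16306 genes. Calls needed q under 0.05 and a fold change of 2, as in the authors' thresholds. Replicate libraries were compared pairwise and none repeated another. TPM per gene are sums over its transcripts, matched to GENCODE M21, and promoter windows are from RefSeq (GRCm38.p6). P-values measure the spread between mice, and cages were not given. The test was tested on simulated data.

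Alternatives were DESeq2 1.42.0, limma-voom 3.58.1, RLE scaling, other filters, the compared groups alone, a replicate block, log2 TPM with a pseudocount of 1 or 0.1, no fold limit and leaving out each mouse. Fits with the B or T cell marker level as a covariate were added after seeing the data. The genes described in the text were those called in any comparison, up to 10 more per comparison at q under 0.05, the 10 highest by TPM, their partners, and up to 5 per comparison with the largest changes that did not pass, at a mean of at least 0.5 CPM. The members and lists were chosen with earlier results of these data known. No column of another sample was present. Some genes of the partner lists are not reported here.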

Additional observations from a re-analysis of the deposited data

Results flagged for a closer look

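Single mice stood far from the other 4 of their group in 10 of 132 groups tested (33 genes in 4 groups, Dixon's test with a critical value of 0.71), where chance gives about 1 in 20, or 6.6. TDD+ABX mouse 5, whose B cell marker sum was 148.9 CPM, was high for Il16 (12.0 CPM, the others 6.06 to 7.52), Il21r (7.42 CPM, the others 1.19 to 2.86), Il27ra (3.02 CPM, the others 1.29 to 1.72) and Il7 (1.75 CPM, the others 1.23 to 1.36). TDD mouse 1, whose B cell marker sum was 7.48 CPM, was high for Il13ra1 (124.2 CPM, the others 90.08 to 98.7), Il15 (33.1 CPM, the others 22.1 to 24.1) and Il4ra (87.5 CPM, the others 63.95 to 70.4). CD mouse 2, which had the lowest ileal enterocyte marker sum, was low for Il13ra1 (77.9 CPM, the others 131.9 to 139.1). For Il17rc, CD mouse 3 was low (92.8 CPM, the others 120.6 to 129.5) and CD+ABX mouse 5 was high (243.3 CPM, the others 159.9 to 170.6). The part of these cell types in the values was not tested.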

How the results depend on the processing

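The number of members called was 1 between the diets in SPF mice, 0 in ABX-treated mice, 3 for ABX on CD, 4 for ABX on TDD and 0 for the interaction, and both counts of 0 held under every alternative run. With log2(TPM + 1) the counts were 0, 1 and 1 for the diet in SPF mice, ABX on CD and ABX on TDD, and with log2(TPM + 0.1) they were 0 for the diet and 2 for ABX on TDD. For ABX on TDD, 2 were called without a filter on low counts, 2 with only the groups compared and 1 with the B cell marker level as a covariate. With the T cell marker level as a covariate, all 3 counts were 0, and without a fold limit they were 5, 11 and 15. Leaving out each mouse gave 0 to 2 for the diet in SPF mice (0 without CD mouse 5 or TDD mouse 1), 3 to 6 for ABX on CD and 0 to 7 for ABX on TDD (0 without TDD mouse 4 or TDD+ABX mouse 1, 7 without TDD+ABX mouse 5). Of the 31 member and comparison pairs that passed the test, all passed with DESeq2 and limma-voom, and 30 with RLE scaling or a replicate block. With the filter of 0.5 CPM in at least 5 mice 29 passed, without a filter 27, and with only the groups compared 24. With log2(TPM + 1) 19 passed, with log2(TPM + 0.1) 18, with the B cell covariate 20 and with the T cell covariate 6. The sign turned for Il2rg with ABX on CD under the T cell covariate (0.0497) and for Il9r between the diets with ABX under the B cell covariate (-0.82), and the causes of these changes were not tested. Replicate numbers did not pair the mice: 5 of 30 same-numbered pairs had a correlation of deviations above 0.1 (-0.38 to 0.26). With a replicate block the counts of calls were 1, 0, 3, 5 and 0, Il21r (-1.44, q = 0.0299) and Il17ra (q = 0.0388) passed on TDD, and Il6st did not (q = 0.0608, edgeR). Depth limits the ligands with few counts.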
